A study of Mus musculus with 15 samples.

Results

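Fkbp5, Tsc22d3, Zbtb16, Klf9, Cebpb, Cebpd, Errfi1, Ddit4, Sgk1 and Mertk are 10 genes known to be induced by the glucocorticoid receptor, the nuclear receptor for the adrenal steroids corticosterone and cortisol. They were taken by symbol, as classic targets, from a table of 15302 genes of mouse liver, and earlier results of these data were known when they were chosen. All 10 were in the table, and all 10 were among the 12274 genes that passed the filter on low counts. Livers of 15 wild-type (WT) mice were sequenced, 5 each from GDF15, PairFed and Vehicle animals. From 8 weeks of age every animal was kept at about 29°C on a diet that causes metabolic dysfunction-associated steatohepatitis (MASH), in which the liver is fatty and inflamed, and before treatment the animals were randomized by body weight and composition and housed singly. The GDF15 group was injected under the skin each morning with 1 nmol/kg of recombinant GDF15, a hormone that acts on the hindbrain to reduce eating. PairFed animals ate what the GDF15 animals had eaten on the previous day, and Vehicle animals were the controls. The labels do not state the length of treatment, the hour at which livers were taken, sex or strain, nor whether PairFed animals were injected.

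In the absence of hormone the receptor waits in the cytoplasm in a complex with the chaperone Hsp90. Once bound by a glucocorticoid, it enters the nucleus and binds response elements, inverted pairs of a short half-site, near its target genes. In the liver its targets include enzymes of gluconeogenesis and amino acid breakdown, anti-inflammatory proteins and the proteins that shut its own signal down. Circulating glucocorticoid follows the time of day and increases under stress and food restriction.

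Promoters from RefSeq (build GRCm38.p6), each running from 250 bases before to 50 bases after a start site, were matched for 8 of the 10 genes. Zbtb16 and Cebpd were not among them. They were searched on both strands for the palindromic core of the glucocorticoid response element (GNACANNNTGTNC), for its half-site AGAACA and for TGACG, the half-site of the cAMP response element that CREB binds. Among 32851 promoters of 27025 genes, 0.47% held the core, 18.97% the half-site and 20.81% TGACG. The 8 genes had 16 promoters, of which 6 belong to Sgk1 and 3 to Tsc22d3. Of the 16, 1 held the core, 4 the half-site and 5 TGACG. The core was in Sgk1 promoter 5 (chr10:21993640-21993939, plus strand), at position -188 from the start, where it overlaps half-sites at -189 and -180. A further half-site lay at -242, overlapping an E-box (CACGTG, in 7.15% of promoters) at -246. Tsc22d3 promoter 2 (chrX:140600473-140600772, minus strand) held a half-site at -185, and Sgk1 promoters 1 and 4 held the others, at -195 and -13. Errfi1 promoter 2 (chr4:150854820-150855119, plus strand) held TGACG at -51 and, overlapping it on the other strand, at -48, and the Cebpb promoter (chr2:167688665-167688964, plus strand) held TGACG at -180, -53 and -7. The other promoters with TGACG were that of Klf9 (-46), Tsc22d3 promoter 3 (-224) and Sgk1 promoter 2 (-236). The Fkbp5 promoter (chr17:28486100-28486399, minus strand) held none of the 3 motifs in this window. It held an E-box at -169, and 2 of the 16 promoters, this and Sgk1 promoter 5, held an E-box. The 5 promoters shown here belong to genes with different responses below. For Sgk1, Tsc22d3 and Errfi1, which have more than 1 promoter, a promoter that held a match is shown. Capitals mark the core and half-sites of the glucocorticoid response element and TGACG, on either strand.
Sgk1 promoter 5: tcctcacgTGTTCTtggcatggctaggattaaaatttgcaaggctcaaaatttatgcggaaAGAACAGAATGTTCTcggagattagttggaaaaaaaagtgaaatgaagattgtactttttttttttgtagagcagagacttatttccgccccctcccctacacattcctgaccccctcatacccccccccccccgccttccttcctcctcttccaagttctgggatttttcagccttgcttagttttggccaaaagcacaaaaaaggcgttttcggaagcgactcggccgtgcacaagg
Tsc22d3 promoter 2: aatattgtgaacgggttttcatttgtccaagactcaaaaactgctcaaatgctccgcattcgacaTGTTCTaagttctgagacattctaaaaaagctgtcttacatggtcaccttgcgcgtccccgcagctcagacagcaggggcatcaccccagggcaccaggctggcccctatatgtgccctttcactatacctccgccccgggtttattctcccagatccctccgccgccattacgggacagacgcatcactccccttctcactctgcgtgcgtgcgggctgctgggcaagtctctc
Fkbp5 promoter: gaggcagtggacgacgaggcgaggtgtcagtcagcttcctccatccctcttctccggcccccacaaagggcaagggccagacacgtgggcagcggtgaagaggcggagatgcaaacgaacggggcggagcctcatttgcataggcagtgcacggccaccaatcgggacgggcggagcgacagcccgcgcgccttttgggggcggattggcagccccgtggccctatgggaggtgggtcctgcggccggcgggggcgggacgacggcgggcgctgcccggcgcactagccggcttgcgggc
Cebpb promoter: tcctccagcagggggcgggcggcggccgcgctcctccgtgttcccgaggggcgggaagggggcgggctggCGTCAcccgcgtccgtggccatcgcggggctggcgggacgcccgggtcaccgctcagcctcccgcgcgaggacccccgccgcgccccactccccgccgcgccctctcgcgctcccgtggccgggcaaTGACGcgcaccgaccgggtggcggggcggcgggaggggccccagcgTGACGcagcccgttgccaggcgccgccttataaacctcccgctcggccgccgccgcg
Errfi1 promoter 2: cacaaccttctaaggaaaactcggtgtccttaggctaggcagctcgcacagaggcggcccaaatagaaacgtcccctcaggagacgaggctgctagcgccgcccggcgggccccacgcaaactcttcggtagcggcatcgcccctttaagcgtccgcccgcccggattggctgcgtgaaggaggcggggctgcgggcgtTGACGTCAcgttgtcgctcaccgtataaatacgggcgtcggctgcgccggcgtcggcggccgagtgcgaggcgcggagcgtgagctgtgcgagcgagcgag

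Depth lay between 8551557 and 12994187 counts. Its largest gap, from 10914914 to 12137462, left 5 deeper libraries, Vehicle 4 and PairFed 2 to 5, and no GDF15 library among them. Depth was therefore tied in part to group. Libraries are numbered by column order only. Over all genes tested, 356 differed in GDF15 vs Vehicle, 35 in PairFed vs Vehicle and 96 in GDF15 vs PairFed at an adjusted p below 0.05 in edgeR's quasi-likelihood test. Adjusted p-values below are from that test. Each tests a difference between 2 groups against the spread of libraries within groups, estimated from all 15 libraries together. The labels give the libraries as separate samples. Hepatocyte markers were present throughout, with Alb, the serum albumin gene, at 82140 CPM (counts scaled by library size) on average in GDF15 livers, 75920 CPM in PairFed livers and 68830 CPM in Vehicle livers.

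In GDF15 vs Vehicle, 6 of the 10 rose, Fkbp5, Zbtb16, Tsc22d3, Cebpb, Klf9 and Errfi1, against 2.02% of all genes tested. None fell, and all 10 log2 fold changes were positive, with a median of 0.99, beside a median of -0.0046 over all genes tested. Every GDF15 liver exceeded every Vehicle liver for 4 of the 10, Fkbp5, Zbtb16, Tsc22d3 and Cebpb, against 2.48% of all genes. In PairFed vs Vehicle, 0 of the 10 passed the threshold with edgeR, against 0.285% of all genes; 2 of them, Errfi1 and Tsc22d3, had an unadjusted p below 0.05, beside 16.9% of all genes. DESeq2 called 1, Tsc22d3, which was lower in PairFed livers, beside 339 of the 12274 genes tested. The median log2 fold change of the 10 was 0.38. No member was higher in every PairFed liver than in every Vehicle liver, against 2.21% of all genes, and 1, Tsc22d3, was lower in every one, against 1.71%.

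GDF15 vs PairFed compares animals matched for food intake, and it is also the test of whether the responses to GDF15 and to pair feeding differ. Fkbp5, Tsc22d3 and Zbtb16 rose in it, 3 of 10 against 0.562% of all genes, and the median log2 fold change of the 10 was 0.67. Those 3 genes and Klf9 were higher in every GDF15 liver than in every PairFed liver, against 1.31% of all genes. Depth bears on this comparison, since 4 of the 5 PairFed livers and no GDF15 liver are among the deeper libraries. With a term for the deeper libraries Fkbp5 still rose (log2 1.49 ± 0.23, adjusted p = 0.0415), while Tsc22d3 (1.24, 0.0521) and Zbtb16 (1.38, 0.278) did not pass. Over all genes the calls of that comparison went down to 9 with the term, against 96 without it. For 9 of the 10 the PairFed mean lay between the GDF15 and Vehicle means, and the exception was Tsc22d3. The share of all genes with such an order was not computed, so that count is a description only. The 3 comparisons share libraries, so their values are set side by side and not counted as separate support.

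**Figure D1:**
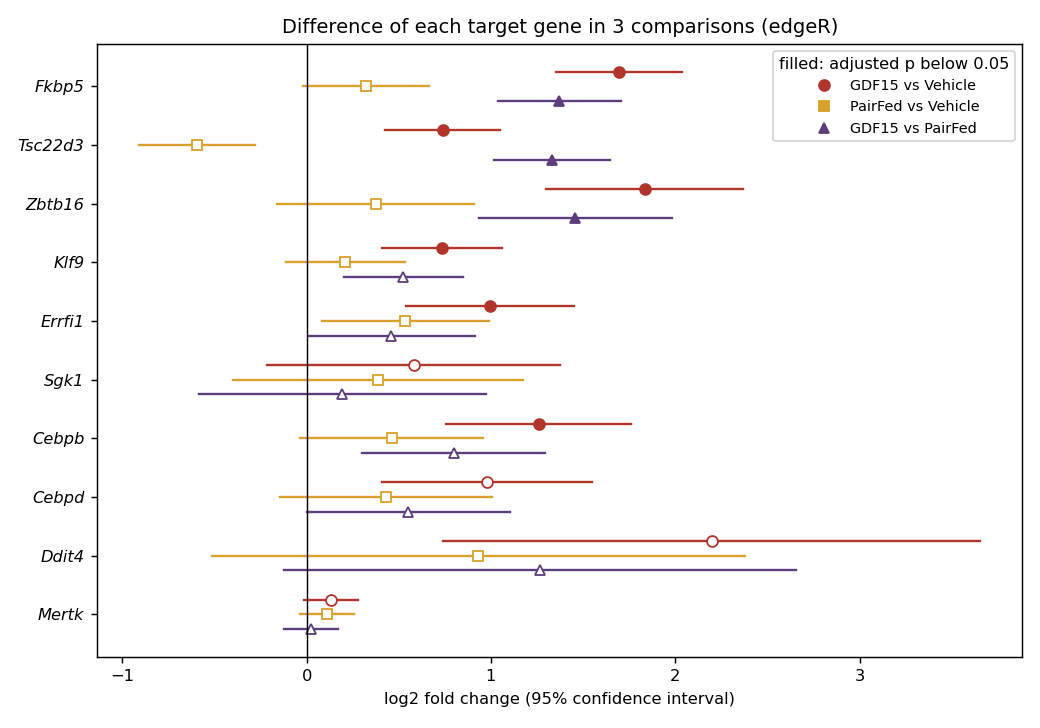
log2 fold change of each target gene with its 95% confidence interval, for GDF15 vs Vehicle (circles), PairFed vs Vehicle (squares) and GDF15 vs PairFed (triangles), with filled symbols at an adjusted p below 0.05. Fkbp5, Tsc22d3 and Zbtb16 have filled symbols in both comparisons of GDF15, and Tsc22d3 alone has a point below 0 in PairFed vs Vehicle.

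Fkbp5 encodes an Hsp90 co-chaperone that lowers the receptor's affinity for hormone, and so forms a short feedback loop. It lies at chr17:28399094-28517527 on the minus strand (GENCODE M21, build GRCm38, used for all gene positions here). Its level was 84.2, 109.8, 64.2, 69.5 and 98.0 CPM in GDF15 livers 1 to 5, 31.7, 32.6, 26.9, 41.7 and 31.3 CPM in PairFed livers, and 28.0, 26.4, 18.9, 29.7 and 28.0 CPM in Vehicle livers. The lowest GDF15 liver was above the highest of the other groups, while PairFed and Vehicle livers overlapped. Fkbp5 rose 3.23-fold in GDF15 vs Vehicle (log2 1.69 ± 0.16 SE, adjusted p = 6.95e-05) and 2.59-fold in GDF15 vs PairFed (log2 1.37 ± 0.16, adjusted p = 0.000652). In PairFed vs Vehicle its log2 fold change was 0.32 ± 0.16, with a 95% confidence interval from -0.02 to 0.66 (adjusted p = 0.319). No other member kept its call in all the alternatives tried for both comparisons of GDF15.

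Zbtb16 encodes the zinc finger transcription repressor PLZF and lies at chr9:48654297-48836222 (minus strand). It had 90.5, 107.0, 86.3, 105.4 and 101.6 CPM in GDF15 livers, against 47.5, 34.0, 22.2, 47.2 and 28.1 CPM in PairFed livers and 30.2, 21.1, 14.97, 33.0 and 38.1 CPM in Vehicle livers. The GDF15 livers formed a narrow band well above the others, and the PairFed and Vehicle livers were mixed. Zbtb16 rose 3.56-fold in GDF15 vs Vehicle (log2 1.83 ± 0.25, adjusted p = 0.00228) and 2.75-fold in GDF15 vs PairFed (log2 1.46 ± 0.24, adjusted p = 0.0178). Without PairFed 5 the second call was lost (log2 1.38, adjusted p = 0.0587). Its PairFed vs Vehicle log2 fold change was 0.37 ± 0.25 (adjusted p = 0.467).

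Tsc22d3 encodes the leucine zipper protein GILZ, which binds and restrains the inflammatory transcription factors NF-kB and AP-1. The gene lies at chrX:140539528-140600659 (minus strand). It was at 184.6, 130.2, 108.5, 100.3 and 115.8 CPM in GDF15 livers, at 59.7, 41.1, 49.6, 48.7 and 54.7 CPM in PairFed livers, and at 83.5, 81.0, 63.0, 79.3 and 76.0 CPM in Vehicle livers. The groups did not overlap in any pair, and the order was GDF15, Vehicle, PairFed, unlike that of any other member. Tsc22d3 rose 1.67-fold in GDF15 vs Vehicle (log2 0.74 ± 0.15, adjusted p = 0.0138) and 2.52-fold in GDF15 vs PairFed (log2 1.33 ± 0.15, adjusted p = 0.000491). Its PairFed level was 0.662 times the Vehicle level (log2 -0.60 ± 0.15, 95% confidence interval -0.91 to -0.28), with an unadjusted p of 0.00102 and an adjusted p of 0.0792. That last difference passed the threshold with DESeq2 (adjusted p = 0.00985), when the fit held those 2 groups only (0.0315) and without GDF15 1 (0.0228). The GDF15 vs Vehicle call was lost among the shallower libraries (log2 0.75, adjusted p = 0.0720).

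**Figure D2:**
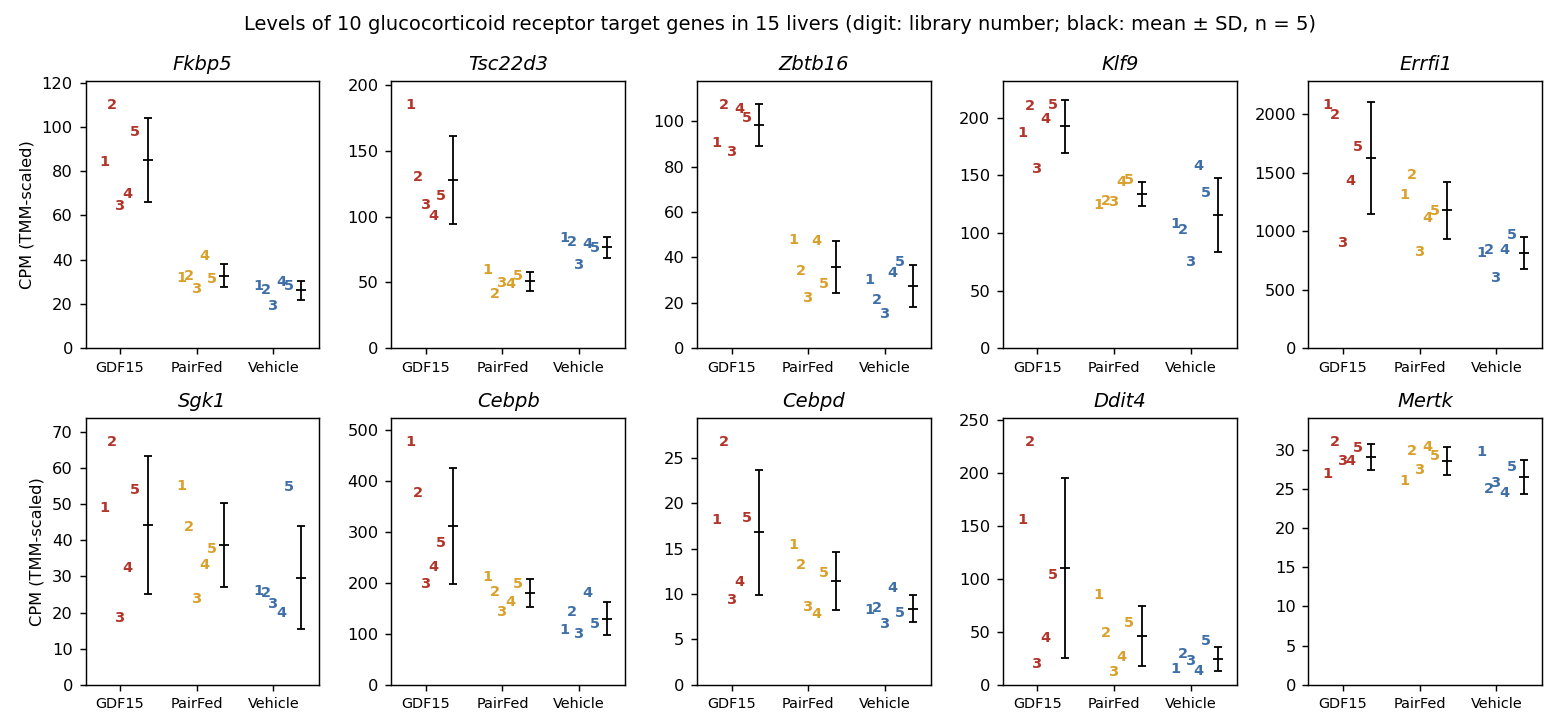
CPM of the 10 target genes in each liver, one panel per gene with its own axis from 0, with digits giving the library number and black bars the mean ± SD of 5 livers. Fkbp5 and Zbtb16 show GDF15 livers apart from both other groups, Tsc22d3 shows 3 separate bands with PairFed lowest, Ddit4 shows GDF15 livers from 19.7 to 229.6 CPM, and Mertk is nearly level.

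Klf9, a zinc finger transcription factor that also takes part in the daily rhythm of gene expression, lies at chr19:23141226-23168134 (plus strand). It had 186.8, 210.2, 155.5, 199.0 and 210.8 CPM in GDF15 livers, 124.6, 127.4, 127.1, 143.9 and 145.9 CPM in PairFed livers and 107.8, 102.6, 74.7, 158.1 and 134.4 CPM in Vehicle livers. A single pair crossed, GDF15 3 and Vehicle 4, and the PairFed livers were the most alike. Klf9 rose 1.66-fold in GDF15 vs Vehicle (log2 0.73 ± 0.15, adjusted p = 0.0180). In GDF15 vs PairFed its log2 fold change was 0.52 ± 0.15 (95% confidence interval 0.20 to 0.85, adjusted p = 0.140), and in PairFed vs Vehicle it was 0.21 ± 0.15 (adjusted p = 0.506). The GDF15 vs PairFed difference passed in a fit of those 2 groups (0.0145), with DESeq2 (0.0277) and without Vehicle 3 (0.0318). The GDF15 vs Vehicle call was lost in a fit of those 2 groups (0.0715) and without GDF15 2 or Vehicle 1 (0.0593 and 0.0590).

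Cebpb and Cebpd encode related leucine zipper transcription factors of the acute phase and of glucose metabolism. Cebpb, at chr2:167688915-167690418 (plus strand), is a gene of 1 exon. It was at 476.7, 375.8, 198.7, 232.2 and 277.6 CPM in GDF15 livers, at 212.1, 182.6, 143.6, 162.1 and 197.1 CPM in PairFed livers and at 107.7, 143.5, 99.6, 179.6 and 120.2 CPM in Vehicle livers. GDF15 and Vehicle livers did not overlap, and PairFed livers reached into both. Cebpb rose 2.39-fold in GDF15 vs Vehicle (log2 1.26 ± 0.23, adjusted p = 0.0125). Its log2 fold change was 0.80 ± 0.23 in GDF15 vs PairFed (95% confidence interval 0.30 to 1.29, adjusted p = 0.150) and 0.46 ± 0.23 in PairFed vs Vehicle (adjusted p = 0.324). The GDF15 vs Vehicle call was lost in a fit of those 2 groups (0.0515) and among the shallower libraries (0.0551), and DESeq2 called the GDF15 vs PairFed difference (0.0109).

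Cebpd, at chr16:15887286-15891031 (plus strand), had 18.1, 26.7, 9.36, 11.3 and 18.4 CPM in GDF15 livers, 15.41, 13.2, 8.60, 7.75 and 12.2 CPM in PairFed livers and 8.21, 8.45, 6.65, 10.7 and 7.92 CPM in Vehicle livers. GDF15 3 was below the highest Vehicle liver, and the other GDF15 livers were above all of them. The log2 fold change in GDF15 vs Vehicle was 0.98 ± 0.27 (95% confidence interval 0.41 to 1.55, adjusted p = 0.0650), close in size to that of Errfi1 but past the threshold only with DESeq2 (0.00476), without GDF15 3 (0.0177) or without GDF15 4 (0.0494). It was 0.55 ± 0.26 in GDF15 vs PairFed and 0.43 ± 0.27 in PairFed vs Vehicle (adjusted p = 0.375 and 0.434). Exons of both genes overlap a gene on the other strand, Tmem189 for Cebpb and Spidr for Cebpd, and although the libraries were directional, no source used here says whether the counting used strand. Whether these counts hold reads of the partner gene is therefore not known. Tmem189 ran from 26.7 to 40.3 CPM, with log2 fold changes of 0.15 in GDF15 vs Vehicle, 0.28 ± 0.08 in PairFed vs Vehicle and -0.13 in GDF15 vs PairFed (adjusted p = 0.388, 0.117 and 0.531). Spidr ran from 3.90 to 6.08 CPM, with 0.11, 0.11 and 0.0072 in the same comparisons (adjusted p from 0.722 to 0.991).

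Errfi1 encodes Mig6, an inhibitor of the epidermal growth factor receptor, and lies at chr4:150853919-150868892 (plus strand). It had 2075, 1992, 896, 1427 and 1721 CPM in GDF15 livers, 1307, 1483, 825, 1112 and 1168 CPM in PairFed livers and 813, 843, 601, 840 and 969 CPM in Vehicle livers. GDF15 3 lay below Vehicle 5, and the other GDF15 livers were above all Vehicle livers. Errfi1 rose 2.00-fold in GDF15 vs Vehicle (log2 1.00 ± 0.21, adjusted p = 0.0239), a call lost without GDF15 1, GDF15 2, Vehicle 1 or Vehicle 3 (adjusted p from 0.0643 to 0.0695), in a fit of those 2 groups (0.0515) and among the shallower libraries (0.0953). Its log2 fold change in PairFed vs Vehicle was 0.54 ± 0.21 (95% confidence interval 0.08 to 0.99, unadjusted p = 0.0234, adjusted p = 0.214). In GDF15 vs PairFed the value was 0.46 ± 0.21 (adjusted p = 0.368).

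Ddit4 encodes REDD1, an inhibitor of the growth kinase mTORC1 that also responds to fasting, low oxygen and other stresses, and lies at chr10:59949669-59951834 (minus strand). Its level was 155.5, 229.6, 19.7, 43.8 and 103.5 CPM in GDF15 livers, 85.0, 48.7, 12.1, 25.9 and 58.1 CPM in PairFed livers and 14.6, 29.6, 22.5, 13.1 and 41.2 CPM in Vehicle livers. The spread within a group was wide, with coefficients of variation of 77.0% in GDF15, 61.8% in PairFed and 47.9% in Vehicle livers. Ddit4 had the highest fold change of the 10 genes and did not pass, at 4.59-fold in GDF15 vs Vehicle (log2 2.20 ± 0.67, 95% confidence interval 0.74 to 3.66, adjusted p = 0.107). It passed with DESeq2 (0.0155) and without GDF15 3 (log2 2.47, 0.0422). In GDF15 vs PairFed the log2 fold change was 1.27 ± 0.64 (adjusted p = 0.419) and in PairFed vs Vehicle it was 0.93 ± 0.67 (adjusted p = 0.508).

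Sgk1 encodes a kinase that acts on ion transport and on FOXO transcription factors, and lies at chr10:21882184-21999903 (plus strand). Its promoter 5 is shown above for its palindromic core. Values overlapped in all 3 groups, with 49.1, 67.2, 18.5, 32.4 and 53.8 CPM in GDF15 livers, 54.9, 43.6, 23.9, 33.1 and 37.6 CPM in PairFed livers and 25.8, 25.4, 22.2, 19.9 and 54.7 CPM in Vehicle livers. Both the lowest of the 15 values, GDF15 3, and the highest, GDF15 2, were in GDF15 livers. The log2 fold change was 0.58 ± 0.37 in GDF15 vs Vehicle (95% confidence interval -0.21 to 1.37, adjusted p = 0.470), 0.19 ± 0.36 in GDF15 vs PairFed (-0.58 to 0.97, 0.870) and 0.39 ± 0.36 in PairFed vs Vehicle (adjusted p = 0.624). A change of 1 log2 unit in GDF15 vs Vehicle lies inside that interval.

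Mertk encodes a receptor tyrosine kinase with which macrophages take up dying cells, and lies at chr2:128698956-128802894 (plus strand). It was the steadiest member, at 26.8, 31.0, 28.6, 28.5 and 30.3 CPM in GDF15 livers, 26.0, 29.8, 27.4, 30.3 and 29.2 CPM in PairFed livers and 29.7, 24.9, 25.8, 24.5 and 27.7 CPM in Vehicle livers. The groups overlapped. Its log2 fold change was 0.13 ± 0.07 in GDF15 vs Vehicle, with a 95% confidence interval from -0.01 to 0.28 (adjusted p = 0.363), and 0.02 ± 0.07 in GDF15 vs PairFed (-0.12 to 0.17, adjusted p = 0.922). Those intervals are the narrowest of the 10 genes. In whole liver, fewer cells of a type and less RNA per cell cannot be told apart. The summed level of 12 Kupffer cell markers was 317 to 697 CPM in GDF15 livers, 453 to 575 CPM in PairFed livers and 491 to 705 CPM in Vehicle livers, and 0 of the 12 changed with edgeR or DESeq2 in any comparison (1 had an unadjusted p below 0.05 in GDF15 vs Vehicle, 2 in PairFed vs Vehicle and 0 in GDF15 vs PairFed).

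The GDF15 livers did not respond alike, and the genes differed in how far they followed one liver or another. Averaged over the 10 genes, the log2 difference from the Vehicle mean was 1.35, 1.52, 0.44, 0.81 and 1.21 in GDF15 livers 1 to 5 and 0.62, 0.40, -0.14, 0.27 and 0.40 in PairFed livers 1 to 5. GDF15 3 was the lowest of its group for 8 of the 10 genes and GDF15 2 the highest for 6. Over Fkbp5, Tsc22d3 and Zbtb16 the difference was 1.58, 1.62, 1.18, 1.27 and 1.49 in GDF15 livers, so that all 5 stood apart. Over Errfi1, Ddit4, Sgk1, Cebpb and Cebpd it was 1.60, 1.84, 0.05, 0.67 and 1.31 in GDF15 livers and 1.05, 0.77, -0.16, 0.24 and 0.71 in PairFed livers. GDF15 3 was thus near the Vehicle mean, and PairFed 1, PairFed 2 and PairFed 5 were above GDF15 4. These groupings were made after the values were seen and are descriptions.

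Immediate-early genes, which are switched on within minutes by handling, feeding or stress, moved with the same livers. Their score (mean log2 CPM of 20 genes, of which none is a member) minus the Vehicle mean was 1.41, 1.48, -0.06, 0.72 and 1.06 in GDF15 livers, 1.09, 0.61, 0.24, 0.40 and 0.76 in PairFed livers and -0.43, 0.40, -0.41, 0.10 and 0.34 in Vehicle livers. Of the 20, Csrnp1 rose in GDF15 vs Vehicle (log2 1.31 ± 0.23, adjusted p = 0.00706), and 18 had positive values, with a median of 1.09. In that comparison 15 of the 20 had an unadjusted p below 0.05, beside 16.7% of all genes, and DESeq2 called 7 higher (Atf3, Btg2, Csrnp1, Dusp1, Ier2, Jun and Maff). In PairFed vs Vehicle and in GDF15 vs PairFed 0 passed with edgeR, 7 and 5 had an unadjusted p below 0.05, and DESeq2 called 2 in each. Dusp1 and Zfp36 are also in the list of other glucocorticoid-induced genes used below. The summed level of the 20 immediate-early genes was 659 to 2310 CPM in GDF15 livers, 754 to 1412 CPM in PairFed livers and 454 to 920 CPM in Vehicle livers. With the score as a covariate, Fkbp5 rose by 1.37 ± 0.18 in GDF15 vs Vehicle (adjusted p = 0.00614), and it was the only member of the 6 that passed. Over all genes, 9 of 12274 passed in that fit, against 356 without the covariate. Zbtb16 had 1.59 (adjusted p = 0.136), Cebpb 0.58 (0.413), Klf9 0.50 (0.671), Tsc22d3 0.44 (0.671) and Errfi1 0.33 (0.817). The signs of Ddit4 (-0.13) and Sgk1 (-0.48) turned. Apart from GDF15 3, every GDF15 liver had a higher score than every Vehicle liver, so the score is tied in part to group. The covariate therefore also takes up part of the group difference. A call lost or a sign turned in that fit cannot separate group from score. In GDF15 vs PairFed with the covariate, Fkbp5 (1.25, adjusted p = 0.000441), Tsc22d3 (1.23, 0.000222) and Zbtb16 (1.38, 0.0249) all still rose.

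**Figure D3:**
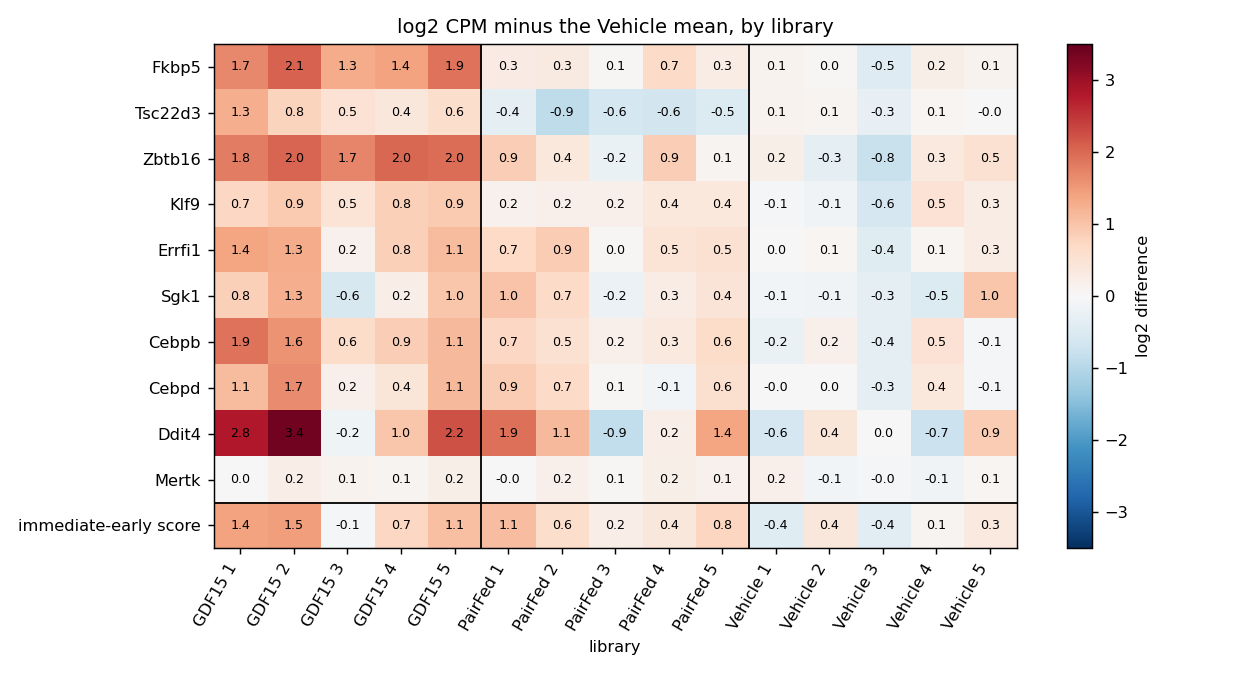
log2 CPM minus the Vehicle mean for each of the 10 target genes (upper part) and the immediate-early score on the same scale (lowest line), with 1 column per liver in the order GDF15, PairFed, Vehicle. Fkbp5 and Zbtb16 are dark in all 5 GDF15 columns, whereas Ddit4, Sgk1 and Cebpd are pale in GDF15 3, where the immediate-early score is -0.06, and Tsc22d3 is negative in all 5 PairFed columns.

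Livers of the same group that were high for one gene were often high for another. Over the 15 livers, Pearson's r of the deviations from the group means ran from -0.34 (Cebpb and Mertk) to 0.90 (Ddit4 and Sgk1) over the 45 pairs of genes, with a median of 0.48. Among Errfi1, Ddit4, Sgk1, Cebpb and Cebpd the 10 pairs had a median of 0.78. Among Fkbp5, Tsc22d3 and Zbtb16 the 3 pairs ran from 0.20 to 0.67, and the strongest link of Tsc22d3 was with Cebpb (0.74), while Klf9 was linked with Fkbp5 (0.71) and Zbtb16 (0.67). These r describe points that share a library and its scaling, and have no p.

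**Figure D4:**
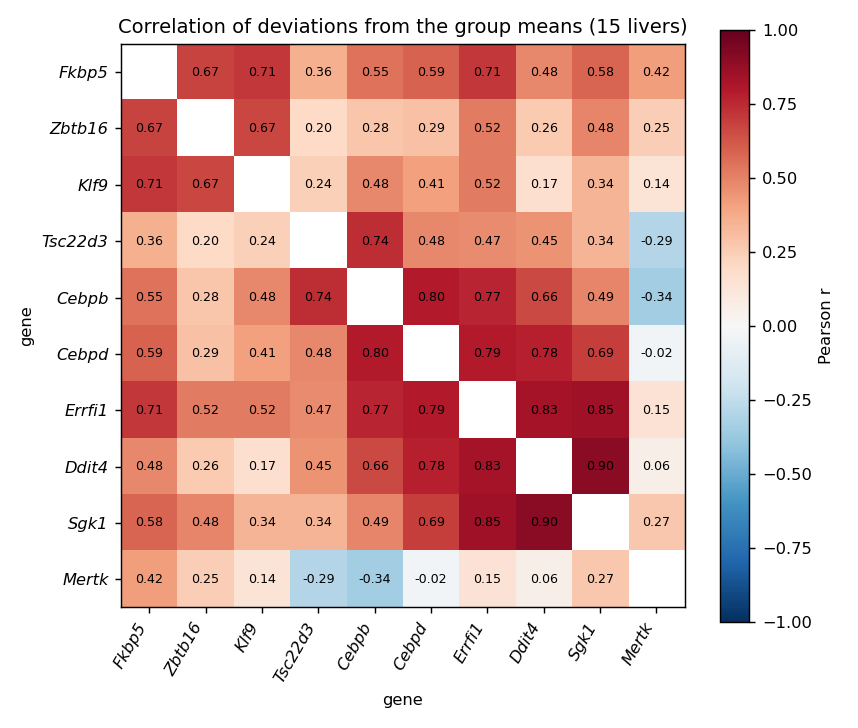
Pearson r between each pair of target genes, computed over 15 livers on deviations of log2 CPM from the group means, with red for positive and blue for negative values. Cebpb, Cebpd, Errfi1, Ddit4 and Sgk1 form a block with r from 0.49 to 0.90, and Mertk lies between -0.34 and 0.42 with the other genes.

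Of 11238 genes whose mean log2 CPM reached 1, Foxo1, a transcription factor of the fasting state, and Cdip1 were the most like the mean of the 10 genes over the 15 livers (Pearson r = 0.955 for both, and 0.846 and 0.837 on deviations from group means). For Fkbp5 and for Zbtb16 the most similar gene was Il6ra, the interleukin 6 receptor (r = 0.937 and 0.916). On deviations from group means those r were 0.682 and 0.59, and that of Tsc22d3 with Tcim, given next, was 0.685. Tsc22d3 was most like Tcim (r = 0.920), which had log2 fold changes of 0.85 in GDF15 vs Vehicle (adjusted p = 0.0332), -0.37 in PairFed vs Vehicle (0.355) and 1.23 in GDF15 vs PairFed (0.0142). Klf9 was most like its own paralog Klf13 (r = 0.939), Errfi1 like Tat (0.946), the tyrosine aminotransferase gene, Cebpb like Sult1d1 (0.947), Cebpd like Rusc2 (0.928), Ddit4 like Trp53inp1 (0.965), Sgk1 like Slc25a25 (0.935) and Mertk like Rrm2b (0.880). For these pairs, from Klf9 to Mertk, r on deviations ran from 0.828 (Cebpb) to 0.946 (Sgk1). All these r describe the same libraries and carry no p.

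Scaled per length of exon, so that genes can be set beside each other, the Vehicle livers held most Errfi1, at 643 ± 99.0 TPM (transcripts scaled by library, SD, n = 5), and then Cebpb at 245 ± 57.1 TPM. Klf9 (67.9 ± 18.3 TPM), Tsc22d3 (50.1 ± 5.97 TPM) and Ddit4 (38.7 ± 17.6 TPM) followed, with ranges that overlapped between neighbours. Below them came Mertk (17.4 ± 2.02 TPM), Sgk1 (17.1 ± 7.86 TPM), Zbtb16 (14.8 ± 4.999 TPM), Fkbp5 (7.86 ± 1.31 TPM) and Cebpd (6.35 ± 1.099 TPM), where each range again overlapped the next. By this measure the genes with the largest called fold changes, Fkbp5 and Zbtb16, were among the least abundant of the set, at 23.4 and 48.4 TPM on average in GDF15 livers. The length used joins all annotated exons of a gene, 9468 bases over 15 transcripts for Fkbp5, and is not that of the transcript expressed. Errfi1 stood at 1173 TPM and Cebpb at 534 TPM in GDF15 livers.

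Of 15 paralogs tested, Klf13 and Klf15, which encode relatives of Klf9, rose in GDF15 vs Vehicle (log2 1.09 ± 0.15, adjusted p = 0.00154, and 0.79 ± 0.15, adjusted p = 0.0125), and Ddit4l, which encodes another mTORC1 inhibitor, fell (-1.15 ± 0.28, adjusted p = 0.0332). Their median was 0.11. Klf13 was at 117.8, 109.5, 90.1, 112.8 and 135.8 CPM in GDF15 livers, at 68.0, 83.9, 69.2, 81.0 and 75.8 CPM in PairFed livers and at 55.9, 48.6, 35.9, 72.6 and 52.8 CPM in Vehicle livers, with no overlap between GDF15 livers and the others. Ddit4l was low, with 1.89 to 3.90 CPM in GDF15 livers, 1.51 to 4.71 CPM in PairFed livers and 4.10 to 8.00 CPM in Vehicle livers, opposite in sign to Ddit4. In GDF15 vs PairFed, Sgk2 (0.54 ± 0.11, adjusted p = 0.0348) and Fkbp4 (0.41 ± 0.09, adjusted p = 0.0387) were higher. Against Vehicle, Sgk2 had 0.42 in GDF15 and -0.12 in PairFed livers (adjusted p = 0.0526 and 0.614). Fkbp4 had 0.11 in GDF15 and -0.31 in PairFed livers (adjusted p = 0.595 and 0.113), so its difference lay mainly in a lower PairFed level. Fkbp4 encodes the co-chaperone that competes with FKBP5 for the receptor complex. Cebpa, the C/EBP of resting hepatocytes, had a log2 fold change of -0.23 in GDF15 vs Vehicle, and Axl, a relative of Mertk, -0.21, and neither passed. In PairFed vs Vehicle 0 paralogs passed with edgeR, 5 had an unadjusted p below 0.05, and DESeq2 called Klf13 higher and Ddit4l lower.

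**Figure D5:**
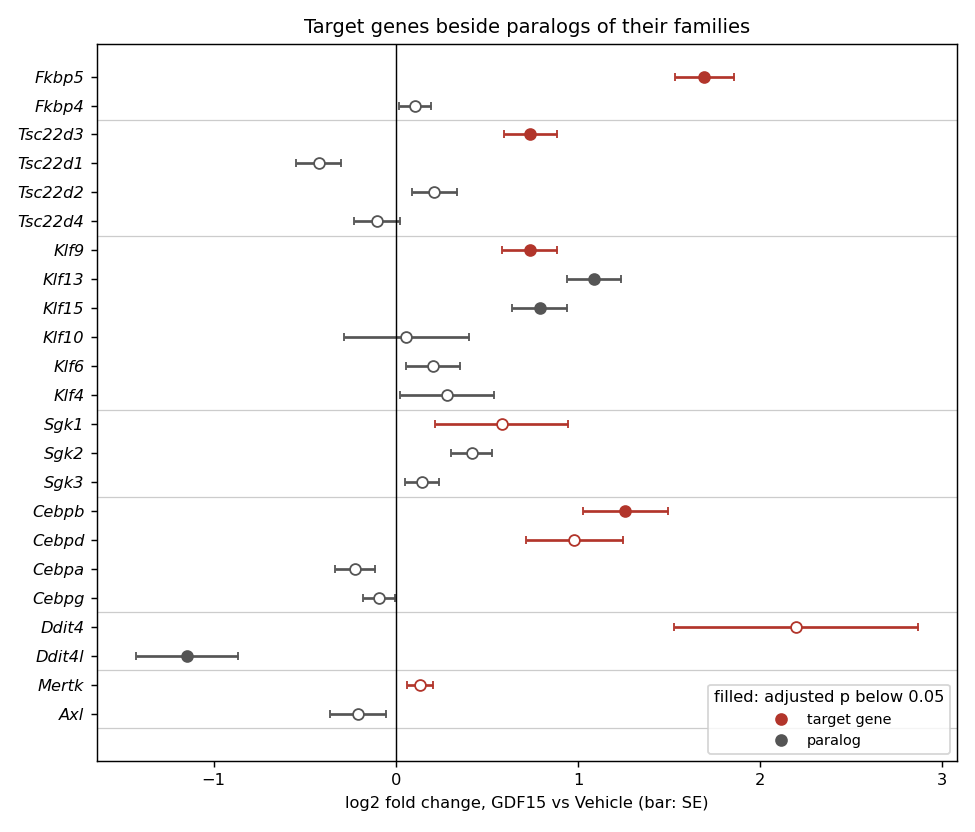
log2 fold change in GDF15 vs Vehicle (bars: SE) of target genes (red) and of paralogs from the same families (grey), with filled points at an adjusted p below 0.05. Klf13 and Klf15 lie near or above Klf9, Ddit4l lies below 0 opposite Ddit4, and the relatives of Fkbp5, Tsc22d3, Cebpb and Mertk have open points.

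The receptor itself, Nr3c1, was at 67.8 ± 7.98 CPM in GDF15 livers, 61.8 ± 3.99 CPM in PairFed livers and 64.9 ± 6.50 CPM in Vehicle livers (SD, n = 5 each), with log2 fold changes of 0.06 in GDF15 vs Vehicle and 0.13 in GDF15 vs PairFed (adjusted p = 0.778 and 0.517). Of 22 genes for the receptor, its chaperones, coregulators and ligand handling, 1 rose in GDF15 vs Vehicle, Akr1d1, a steroid reductase that inactivates glucocorticoid (0.45 ± 0.11, adjusted p = 0.0427). Another, the chaperone gene Hspa8, fell (-0.30 ± 0.08, adjusted p = 0.0435). Their median was 0.0097, and in GDF15 vs PairFed 1 of the 22, Fkbp4, was higher, with the values given above. In PairFed vs Vehicle 0 passed with edgeR, 7 had an unadjusted p below 0.05, and DESeq2 called Hsp90aa1 and Hspa8 lower.

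A list of 30 other genes induced by glucocorticoid in liver gives the setting of the 10. Of the 29 tested, 9 rose in GDF15 vs Vehicle with a median of 0.77, against 2.02% of all genes. In that comparison 19 had an unadjusted p below 0.05, beside 16.7% of all genes, and DESeq2 called 15. In PairFed vs Vehicle 0 passed with edgeR, with a median of 0.21. There 11 had an unadjusted p below 0.05, beside 16.9% of all genes, and DESeq2 called 4. In GDF15 vs PairFed 12 had an unadjusted p below 0.05, beside 13.3% of all genes, and DESeq2 called 5. With edgeR 4 rose there with a median of 0.45, against 0.562% of all genes. The 4 were Lpin1, a phosphatidate phosphatase of lipid synthesis (log2 1.48 ± 0.26, adjusted p = 0.0253), Sds, serine dehydratase (1.08 ± 0.17, 0.00977), Il6ra (0.97 ± 0.17, 0.0190) and Tdo2, which breaks down tryptophan (0.45 ± 0.10, 0.0474). None of the 29 fell with edgeR, and DESeq2 called Lcn2 lower in both comparisons with Vehicle. The metallothionein genes Mt1 and Mt2, the clock gene Per1, Tat and Gpt2 also rose in GDF15 vs Vehicle, by log2 2.06, 2.35, 1.32, 1.66 and 0.29. In PairFed vs Vehicle their log2 fold changes were also positive, from 0.34 (Gpt2) to 1.49 (Mt1). Their adjusted p there ran from 0.0578 (Gpt2) to 0.228 (Tat), and DESeq2 called Mt1, Per1 and Gpt2 higher. Their adjusted p in GDF15 vs PairFed ran from 0.241 (Tat) to 0.838 (Gpt2), so a difference between the responses to GDF15 and to pair feeding was not shown for these genes. Of 16 partners and substrates of the 10 proteins, Foxo1 (0.89 ± 0.15, adjusted p = 0.00573) and Foxo3 (0.67 ± 0.11, adjusted p = 0.00259), which SGK1 phosphorylates, rose in GDF15 vs Vehicle. Of the 16, 0 passed with edgeR in PairFed vs Vehicle and in GDF15 vs PairFed, where 3 and 5 had an unadjusted p below 0.05 and DESeq2 called 1 each, Foxo3 and Foxo1. Foxo1 was at 61.5 to 102.6 CPM in GDF15 livers, 46.4 to 73.4 CPM in PairFed livers and 37.4 to 49.5 CPM in Vehicle livers.

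Genes of other pathways that can also induce members were counted in the same way. Per1, Pck1, Angptl4, Irs2, G6pc, Pdk4, Il6ra, Lcn2 and Cdkn1a are also in the list of other glucocorticoid-induced genes. The lists are therefore not separate from it. Of 18 clock genes, Ciart, Cry2 and Per1 rose in GDF15 vs Vehicle, with a median of 0.42 over the list. In that comparison 6 had an unadjusted p below 0.05 and DESeq2 called 5 higher (Bhlhe40, Ciart, Cry2, Hlf and Per1). In PairFed vs Vehicle the median was 0.38, 0 passed with edgeR and 11 had an unadjusted p below 0.05. DESeq2 called 6 there, of which Npas2 was lower. Bhlhe41 was lower in GDF15 vs PairFed (-1.91 ± 0.39, adjusted p = 0.0344). Its values against Vehicle were 1.37 in PairFed and -0.54 in GDF15 livers (adjusted p = 0.0913 and 0.564). Of 16 fasting and insulin-repressed genes, Ppargc1a rose in both comparisons of GDF15. In GDF15 vs Vehicle 8 of them had an unadjusted p below 0.05 and DESeq2 called 5 higher (Angptl4, Cyp4a14, Pck1, Ppargc1a and Trib1), and in PairFed vs Vehicle 0 passed with edgeR, 6 had an unadjusted p below 0.05 and DESeq2 called Cpt1a higher. Of 15 genes of the interleukin 6 and STAT3 response, which induces Cebpb and Cebpd, Il6ra rose in both comparisons of GDF15 and Apcs fell in GDF15 vs Vehicle, with a median of -0.01. DESeq2 also called Lcn2 lower in both comparisons with Vehicle and Saa1 lower in PairFed vs Vehicle. Of 13 tested targets of ATF4, hypoxia and stress, which induce Ddit4, Vegfa rose in GDF15 vs Vehicle, and Egln3 rose in PairFed vs Vehicle and fell in GDF15 vs PairFed. The part of these pathways in the members' levels was not tested.

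Markers of the cells a liver holds gave the following beside these results. The summed level of 12 hepatocyte markers was 122900 to 152200 CPM in GDF15 livers, 116900 to 140100 CPM in PairFed livers and 108100 to 130100 CPM in Vehicle livers, and Ass1 and Cps1 rose in both comparisons of GDF15. Of 11 tested monocyte and macrophage markers, 0 had a positive log2 fold change in GDF15 vs Vehicle or in PairFed vs Vehicle, with medians of -0.47 and -0.62. With edgeR, Ly6c2 fell in GDF15 vs Vehicle and 0 passed in PairFed vs Vehicle, 7 and 5 had an unadjusted p below 0.05, and DESeq2 called Itgax lower in PairFed vs Vehicle. The markers had summed levels of 326 to 581 CPM in GDF15, 391 to 576 CPM in PairFed and 422 to 881 CPM in Vehicle livers. Of 6 tested T, NK and B cell markers, Cd8a fell in GDF15 vs Vehicle, where 1 of the 6 was positive and the median was -1.20, beside 0 positive and a median of -0.60 in PairFed vs Vehicle, with sums of 6.28 to 9.63 CPM in GDF15, 5.76 to 13.7 CPM in PairFed and 9.53 to 26.7 CPM in Vehicle livers. Of 9 tested bile duct markers, Sox9 fell in PairFed vs Vehicle and, with DESeq2 only, in GDF15 vs Vehicle, and 1 was positive in GDF15 vs Vehicle and 0 in PairFed vs Vehicle, with medians of -0.27 and -0.59. In the lists of 12 endothelial, 12 stellate, 6 tested neutrophil and blood and 3 tested neighbouring tissue markers, 0 genes passed with edgeR or DESeq2 in any comparison, and at most 2 of a list, the endothelial one in GDF15 vs PairFed, had an unadjusted p below 0.05. Their sums were 131 to 348, 332 to 761, 122 to 556 and 47.5 to 107 CPM in GDF15 livers, 220 to 383, 531 to 736, 193 to 660 and 74.5 to 137 CPM in PairFed livers, and 175 to 294, 516 to 900, 164 to 370 and 57.5 to 98.7 CPM in Vehicle livers. Of the 12 neighbouring tissue genes 5 had counts, and Adipoq, Plin1, Cpa1, Pnlip, Ins2 and Gcg were not among them. Cidec was the most abundant, at 109 TPM in Vehicle livers beside 13.5 TPM for Cela1, so that sum mainly follows Cidec. Umod of kidney was at 0 in all GDF15 livers and Cyp11a1 of adrenal in all PairFed livers, and both were below 0.5 CPM elsewhere. The part of cell makeup in the members' levels was not tested.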

How the data were processed

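Liver RNA of 15 mice was sequenced from directional libraries. Estimated counts per gene symbol, as whole numbers and not scaled to depth, were deposited by the authors; the submitters' processing notes list Salmon, DESeq2 and mm10 with neither role nor version. No source used here gives the strand setting or transcript set. Columns were assigned to groups by name, and no column could be tied to one animal.

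With edgeR 4.0.16 (R 4.3.3), filterByExpr (count 10, total 15) kept 12274 genes with 99.9% of the counts, which were scaled by TMM. A quasi-likelihood model with robust estimation was fitted to all 15 libraries, and p-values of each of 3 contrasts were adjusted by Benjamini-Hochberg over all genes tested, with a threshold of 0.05. The code was tested on simulated data. The common biological coefficient of variation was 13.3%. CPM are TMM-scaled, and log2 CPM have a prior count of 2. TPM use the joined length of all annotated exons of a gene in GENCODE M21, to which 15024 of 15302 symbols matched. DESeq2 1.42.0, limma 3.58.1 (voom), other scalings, no filter, fits of 2 groups, a depth term, an immediate-early covariate and leaving out each library were the alternatives; a fit of the shallower libraries was added after the data were seen.

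The 10 genes and 18 gene lists were chosen with earlier results of these data known. Named from the lists were genes past the threshold, up to 3 abundant others, any receptor or paralog gene, and the genes with the highest Pearson r. Tmem189 and Spidr were added for their overlap with members.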

Additional observations from a re-analysis of the deposited data

Results flagged for a closer look

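Among the 30 sets of 5 livers formed by the 10 target genes and 3 groups, 1 held a liver far from the rest, where chance gives about 1 in 20. Sgk1 was at 54.7 CPM in Vehicle 5, while the other Vehicle livers were at 19.9 to 25.8 CPM. The gap took 0.828 of the range of the group, above the 95% critical value of Dixon. In the same liver Ddit4 was at 41.2 CPM, the highest of the Vehicle group, and the immediate-early score was 0.34 above the Vehicle mean. Without Vehicle 5 the log2 fold change of Sgk1 in GDF15 vs Vehicle was 0.92 ± 0.33 (adjusted p = 0.192).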

How the results depend on the processing

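Of 700 recomputed log2 fold changes of the 10 genes, 659 kept their direction and their side of the threshold. The 6 members past it in GDF15 vs Vehicle became 3 in a fit of the 2 groups, 3 among the shallower libraries (a setting chosen after seeing the data) and 1 with the immediate-early covariate, 8 with DESeq2 (with Cebpd and Ddit4), and 4 to 8 when single libraries were left out. The 0 members in PairFed vs Vehicle became 1 in a fit of the 2 groups and with DESeq2, and 0 to 1 without single libraries. The 3 members in GDF15 vs PairFed became 1 with the depth term and 5 with DESeq2, and 2 to 4 without single libraries. Over all genes, 356 in GDF15 vs Vehicle became 194 in a fit of the 2 groups, 9 with the covariate, 151 among the shallower libraries and 642 with DESeq2, and 134 (without GDF15 2) to 476 (without GDF15 3) without single libraries. In PairFed vs Vehicle 35 became 0 with the depth term, 0 with the covariate and 339 with DESeq2, and 0 to 135 without single libraries. In GDF15 vs PairFed 96 became 9 with the depth term and 259 with DESeq2, and 21 to 171 without single libraries. With upper-quartile factors 58.7% of the genes called in GDF15 vs Vehicle were higher, beside 248 of 356 with TMM, and 32.5% in PairFed vs Vehicle, beside 18 of 35.

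Signs turned only for values that had not passed. With the immediate-early covariate, Sgk1 was at -0.48 and Ddit4 at -0.13 in GDF15 vs Vehicle, Sgk1 at -0.28, Cebpd at -0.089 and Ddit4 at -0.52 in PairFed vs Vehicle, and Sgk1 at -0.20 in GDF15 vs PairFed, where the depth term gave -0.33. Without single libraries, Sgk1 in GDF15 vs PairFed ran from -0.0066 (without GDF15 2) to 0.39 and Mertk from -0.0070 (without PairFed 1) to 0.049. The cause of these changes was not tested. No paired analysis was possible because the labels and columns match no PairFed mouse with a GDF15 mouse. Member counts ran from 64 (Cebpd) to 18671 (Errfi1) in a library.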
